A study of Rattus norvegicus with 2 samples.

Results

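MiR-153, miR-598 and miR-210 were followed in the hippocampus of rats after status epilepticus (SE), a seizure that does not stop by itself. The members were all rows of the deposited table named for these miRNAs, whatever the arm, which gave 4 of the 390 rows: rno-miR-153-3p, rno-miR-153-5p, rno-miR-598-3p and rno-miR-210-3p. The 3 miRNAs were chosen by their counts, because a row of each was over 2.5-fold higher in the experimental than in the control library. Their ratios between the libraries are therefore given as a description and were not tested. The table held 328 known rat miRNAs and 62 miRNAs predicted from the reads.

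Both groups were Wistar rats, 5 months old by the labels and male by the study's methods, with an electrode implanted in the right amygdala and 10 days of recovery. The Experimental group had SE from stimulation of the lateral nucleus of the right amygdala, and its RNA was taken 24 hours later. The stimulation lasted 20 min by the labels, and by the methods it was resumed in animals that had not reached SE. The Control group had sham stimulation by the labels, and the methods describe the same surgery and handling without current. The left hippocampi, opposite the electrode, were used after perfusion with saline, and RNA was pooled within each group. The study had 6 rats per group and time point, and the number in each pool is not given in the sources used here. Each group thus had 1 library, so that no difference has a replicate check and the spread between animals is unknown. The counts summed to 5678090 in the experimental and 6703056 in the control library. Levels are given as counts per 1000000 counted miRNA reads (CPM), on which 1 count was worth 0.176 CPM after SE and 0.149 CPM in the control group.

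A miRNA is cut from a hairpin precursor that can release a mature strand from either arm, named 5p and 3p. The mature strand guides a silencing complex to messenger RNAs, mainly through its seed, bases 2 to 8, and lowers their translation or stability. MiR-153 is a brain-enriched miRNA encoded within a gene of the Ptprn family, which makes proteins of dense-core secretory vesicles, and it is known to target α-synuclein, APP and SNAP25. MiR-598 is encoded within Xkr6 and is found mostly in nervous tissue. MiR-210 is the best-known miRNA of the hypoxia response. It is induced by hypoxia-inducible factor and lowers mitochondrial respiration through the iron-sulphur cluster scaffold ISCU.

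The mature strands of miR-153 and miR-210-3p are shown because their seeds set apart the targets of each miRNA. No sequence of miR-598-3p was held by the reference used, so its seed, hairpin and base composition are not described. The sequences are from RefSeq (rat build GRCr8), with the seed in capitals.
rno-miR-153-3p: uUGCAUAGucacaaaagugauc
rno-miR-153-5p: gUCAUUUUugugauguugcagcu
rno-miR-210-3p: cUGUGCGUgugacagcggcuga
These 3 seeds were all different. No other mature rat miRNA of the RefSeq table had the seed of miR-153-3p or of miR-210-3p. MiR-448-3p shared bases 2 to 7 with miR-153-3p, and miR-147, which was not analysed here, shared them with miR-210-3p. MiR-448-3p is shown with these shared bases in capitals, as the closest relative by seed that was counted.
rno-miR-448-3p: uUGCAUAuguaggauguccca
Outside the seed region the strands were far apart, and miR-448-3p differed from miR-153-3p by 10 edits over the whole length. The closest mature sequence among the 297 of 328 known miRNAs with a RefSeq sequence was 9 edits away for miR-153-3p and 9 edits away for miR-210-3p. These strands were therefore not close to any counted miRNA that was compared. The other known miRNAs and the predicted ones were not compared.

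The precursors are shown with the 3p strand in capitals, since the 3p strand was the main product in the counts. The hairpin of miR-153 lies at chr6:144306594-144306680 on the plus strand, and its 3p strand begins at base 53 of 87.
Mir153: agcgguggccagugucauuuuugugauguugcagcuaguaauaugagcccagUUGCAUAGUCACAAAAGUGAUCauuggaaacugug
The hairpin of miR-210 lies at chr1:205755923-205756032 on the minus strand, and its 3p strand begins at base 66 of 110.
Mir210: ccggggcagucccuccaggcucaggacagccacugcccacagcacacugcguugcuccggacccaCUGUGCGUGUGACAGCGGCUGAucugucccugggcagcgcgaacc
In the RefSeq annotation the miR-153 gene sits within the span of Ptprn2 and of the long non-coding RNA LOC120093227. The gene of miR-598 sits on chromosome 15 within the span of Xkr6. The gene of miR-210 lies within the long non-coding RNA LOC102553043, with the protein-coding genes Rassf7, Lmntd2 and Phrf1 within 10 kb. The spans were compared by position only, without strand. None of these longer transcripts was measured in the small RNA libraries. The miR-210 locus also encodes miR-3574 on the opposite strand, and the mature miR-3574 is the exact reverse complement of miR-210-3p. MiR-3574 was not analysed here, and whether the authors' counting used strand is not given in the sources used here. Apart from miR-3574, no annotated miRNA gene lies within 10 kb of the genes of miR-153, miR-598 or miR-210.

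MiR-598-3p was the most abundant of the 4. After SE rno-miR-598-3p had 12479 counts, or 2198 CPM (95% exact Poisson interval 2159 to 2237), against 3656 control counts, or 545 CPM (528 to 563). The level was 4.03-fold higher after SE, a log2 ratio of 2.01 (95% exact Clopper-Pearson interval 1.96 to 2.06). All intervals here cover counting error only, and PCR copies of a molecule are counted as separate reads. By its counts miR-598-3p moved from position 49 to position 23 among the 390 miRNAs. Its share of all counts went from 0.0545% to 0.220%.

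MiR-153-3p was found at a much lower level. After SE rno-miR-153-3p had 208 counts, or 36.6 CPM (95% exact Poisson interval 31.8 to 42.0), against 64 control counts, or 9.55 CPM (7.35 to 12.2). Its level was 3.84-fold higher after SE, a log2 ratio of 1.94 (95% exact Clopper-Pearson interval 1.53 to 2.37). It moved from position 232 to position 151 by counts.

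MiR-153-5p, the opposite strand of the same hairpin, was near the limit of the depth. After SE rno-miR-153-5p had 13 counts, or 2.29 CPM (95% exact Poisson interval 1.22 to 3.92), against 8 control counts, or 1.19 CPM (0.515 to 2.35). The log2 ratio was 0.94 (95% exact Clopper-Pearson interval -0.44 to 2.42), an interval that holds values in either direction. The arms were counted apart, and the 5p arm made up 5.88% of the miR-153 reads after SE (3.17 to 9.85, 95% Clopper-Pearson) and 11.1% of those in the control library (4.92 to 20.7). In both libraries the 3p arm was thus the main product, with 16 reads for each 5p read after SE and 8 without it, and the intervals of the 5p share overlapped.

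MiR-210-3p was the least abundant of the 3 miRNAs that were picked. After SE rno-miR-210-3p had 80 counts, or 14.1 CPM (95% exact Poisson interval 11.2 to 17.5), against 35 control counts, or 5.22 CPM (3.64 to 7.26). Its level was 2.70-fold higher after SE, a log2 ratio of 1.43 (95% exact Clopper-Pearson interval 0.84 to 2.05). As a fold this interval runs from 1.79 to 4.14, so that it includes values under the 2.5-fold limit by which the miRNA was picked. With edgeR's TMM scaling the fold was 2.43, and with unscaled copies it was 2.29.

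**Figure D1:**
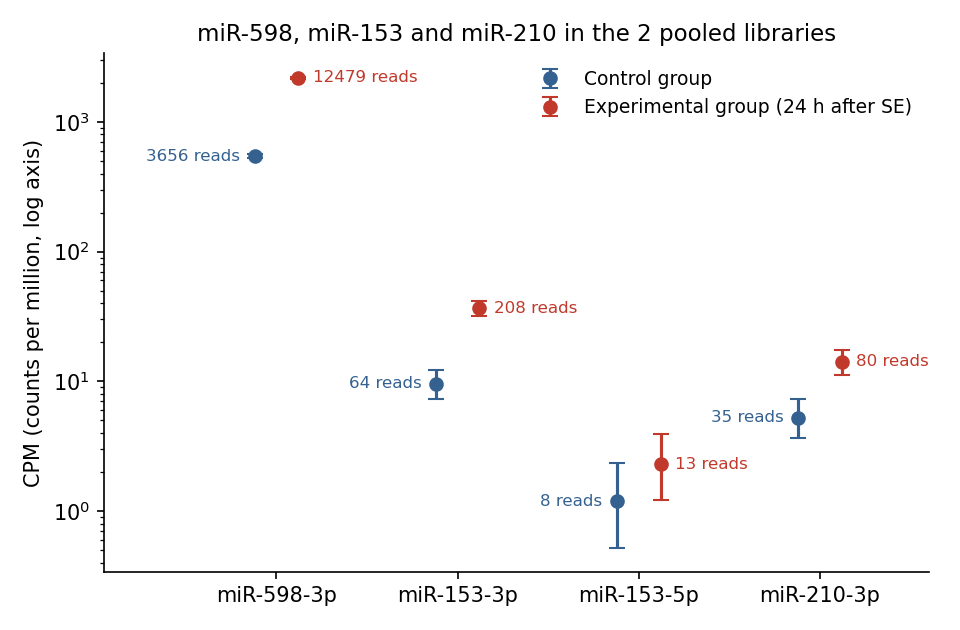
Levels of miR-598-3p, miR-153-3p, miR-153-5p and miR-210-3p in CPM on a log axis, with the read counts beside the points. Each point is 1 pooled library, blue for the Control group and red for the Experimental group, and bars are 95% exact Poisson intervals. The bars cover counting error only. Those of the libraries are apart for miR-598-3p, miR-153-3p and miR-210-3p, which were picked by their ratio, and overlap for miR-153-5p.

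The order of the levels was the same in both libraries, with miR-598-3p first, then miR-153-3p, miR-210-3p and miR-153-5p. The intervals of neighbours in this order did not overlap within either library. Levels of different miRNAs also carry the ligation preferences of the small RNA protocol, so this order is one of reads. The ratio of miR-598-3p to miR-153-3p was 60.0 reads to 1 after SE and 57.1 to 1 in the control group. The log2 ratios of these miRNAs differed by 0.07 (95% exact conditional interval -0.36 to 0.49). Against miR-210-3p, the log2 ratio was higher by 0.58 for miR-598-3p (interval -0.04 to 1.17) and by 0.51 for miR-153-3p (interval -0.24 to 1.24). Since each of the 3 was picked past the same limit, these differences are a description and say nothing on whether the miRNAs move alike.

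Of the 4 rows, 3 reached at least 30 counts in either library, and the remaining one was miR-153-5p. Of all miRNAs, 285 reached that minimum, and 16 of them were over 2.5-fold higher after SE, which is 5.61%. Over 2.5-fold lower were 4, or 1.4%. Among the 263 known miRNAs with 30 counts, 14 were over 2.5-fold higher (5.32%) and 2 were lower (0.76%). MiR-598-3p, miR-153-3p and miR-210-3p are 3 of these 14 by the rule itself. Ordered by the ratio, they took positions 7, 8 and 14 among the known miRNAs. MiR-210-3p was the last inside the limit, and miR-331-3p was the first outside it, with 1294 and 653 counts and a log2 ratio of 1.23.

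Other miRNAs had ratios near those of the 3. The log2 ratios closest to that of miR-153-3p belonged to miR-150-3p, a strand of a lymphocyte miRNA, with 59 and 19 counts (log2 ratio 1.87), miR-764-3p with 35 and 10 counts (2.05), and miR-500-3p with 32 and 11 counts (1.78). The same 3 were closest to miR-598-3p. Closest to miR-210-3p were miR-134-5p, which limits the growth of dendritic spines, with 209 and 88 counts (1.49), miR-92b-5p with 563 and 224 counts (1.57), and miR-331-3p. Likeness here means only a similar ratio between 2 libraries.

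The abundant miRNAs were also counted, and miR-598-3p is among those over 2.5-fold higher by the rule itself. Of the 75 known miRNAs with a mean of at least 1000 counts, 2 were over 2.5-fold higher, or 2.67%. These were miR-341, with 4297 and 975 counts and a log2 ratio of 2.38, and miR-598-3p. The next was miR-124-3p, the main neuronal miRNA, at 1.06. Both miR-341 and miR-124-3p were singled out here after their values had been seen. The median log2 ratio of the 75 was 0.03, with quartiles of -0.25 and 0.31. Among the 104 known miRNAs with a mean of 100 to under 1000 counts, which include miR-153-3p, 5 were over 2.5-fold higher (4.81%). Among the 84 with a mean under 100 counts, which include miR-210-3p, 7 were (8.33%). The median width of the 95% interval of the log2 ratio was 0.11, 0.52 and 1.17 in these classes, from the highest to the lowest counts. The limits of the classes were chosen after the data had been seen.

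**Figure D2:**
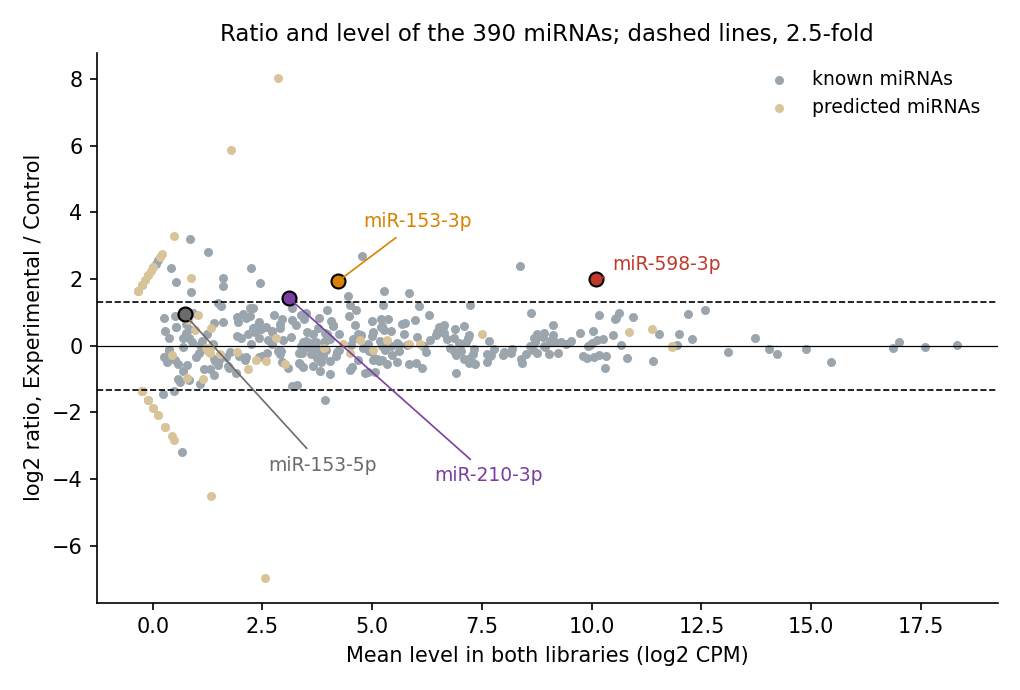
The log2 ratio of Experimental over Control library against the mean level in log2 CPM for all 390 miRNAs, with counts under 3 set to 3. Dashed lines mark 2.5-fold in either direction. MiR-598-3p lies above the upper line at a mean near 10 log2 CPM, with a log2 ratio of 2.01, while miR-153-3p and miR-210-3p lie among less abundant miRNAs with a wider scatter.

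The neighbours by count in the control library are given as rows of similar depth that were not picked by their ratio. Next to miR-598-3p were miR-330-3p, with 3381 and 3666 counts and a log2 ratio of 0.12, and miR-24-3p, with 3180 and 3400 counts and a log2 ratio of 0.14. Next to miR-153-3p were a predicted miRNA, novel_mir_17, with 38 and 66 counts (log2 ratio -0.56, interval -1.17 to 0.04), and miR-376c-3p, with 37 and 61 counts (-0.48, interval -1.11 to 0.13). Next to miR-210-3p were miR-488-5p, with 43 and 38 counts (0.42, interval -0.25 to 1.09), and miR-17-5p, with 41 and 33 counts (0.55, interval -0.14 to 1.26). These were the last by name of 3 rows with 38 control counts, whose log2 ratios ran from -0.69 to 0.45, and the first by name of 6 rows with 33, whose log2 ratios ran from -0.80 to 0.92. Because the members were picked by their ratio and the neighbours were not, nothing is drawn from the distance between them.

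MiR-448-3p, which shares bases 2 to 7 with miR-153-3p and is encoded within the serotonin receptor gene Htr2c, had a ratio closer to that of the whole table. It was read 3503 times after SE and 3315 times without it, or 617 and 495 CPM, a log2 ratio of 0.32 (95% exact Clopper-Pearson interval 0.25 to 0.39). With unscaled copies the log2 ratio was 0.08. In either library this relative was read far more often than miR-153-3p.

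The 3p strands of miR-153 and miR-210 differed in base composition. MiR-153-3p had 36.4% G and C, and miR-210-3p had 63.6%. A RefSeq sequence was found for 297 of the 328 known miRNAs (90.5%), and the 236 of these with at least 30 counts had a median of 47.6% (quartiles 40.9% and 54.5%). Both strands were thus outside the middle of the range, on opposite sides. Across the 236 miRNAs the correlation of GC content with the log2 ratio was weak (Pearson's r 0.22, Spearman's rho 0.20), a description across miRNAs that share the same 2 libraries. The 27 miRNAs with at least the GC content of miR-210-3p, itself included, had a median log2 ratio of 0.25. The 31 with at most that of miR-153-3p, itself included, had one of -0.05. TMM lowered both medians by 0.15. Because the members were picked by their ratio, nothing about them is drawn from the correlation or the medians.

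The lists to which the members belong by location or by response were read beside them. Of 24 rows from introns of genes that neurons use, 2 were over 2.5-fold higher and 0 over 2.5-fold lower, beside 5.61% and 1.4% of all 285 miRNAs, which is near the same share. The median log2 ratio was 0.14, beside 0.07 for all 285. The 2 were miR-874-3p, from Klhl3, with 31 and 4 counts (log2 ratio 3.19), and miR-764-3p, from Htr2c. MiR-128-3p, the most abundant of this class, was read 214423 times after SE and 354286 times without it (log2 ratio -0.48). Of the names in this list 17 of 24 had a row in the table.

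Of the 18 hypoxia-responsive rows other than miR-210, 0 were over 2.5-fold higher or lower, beside 5.61% and 1.4% of all 285 miRNAs, and in a list of this size 0 is close to these shares. The median log2 ratio was -0.03. The highest was miR-181a-5p, with 15063 and 9845 counts and a log2 ratio of 0.85. The lowest was miR-181a-1-3p, from the opposite strand of a miR-181a precursor, with 129 and 261 counts and a log2 ratio of -0.78. MiR-21-5p, which is raised in many injuries, had a log2 ratio of 0.29 from 2816 and 2710 counts. The 9 rows above 0 and 9 below 0 place this list at the centre of the table under this scaling, while unscaled copies put its median at -0.27 and TMM at -0.18, both shifted like the whole table.

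Of 9 rows for miRNAs known to respond to neuronal activity or seizures, 1 was over 2.5-fold higher and 0 were lower, beside 5.61% and 1.4% of all 285 miRNAs, and in so short a list 1 row is not set apart from these shares. The median log2 ratio was 0.43, beside 0.07 for all 285, with 7 rows above 0 and 2 below. The 1 past the limit was miR-134-5p. MiR-212-3p, which is driven by CREB in active neurons, had a log2 ratio of 1.21 from 330 and 168 counts. Of the strands of miR-132 in the same cluster, miR-132-3p had 384 and 283 counts (log2 ratio 0.68) and miR-132-5p had 281 and 325 counts (0.03). The lowest of the list were miR-146a-5p, with 74 and 106 counts (-0.28), and miR-184, with 67 and 103 counts (-0.38). These miRNAs other than miR-134-5p were chosen after their values had been seen.

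**Figure D3:**
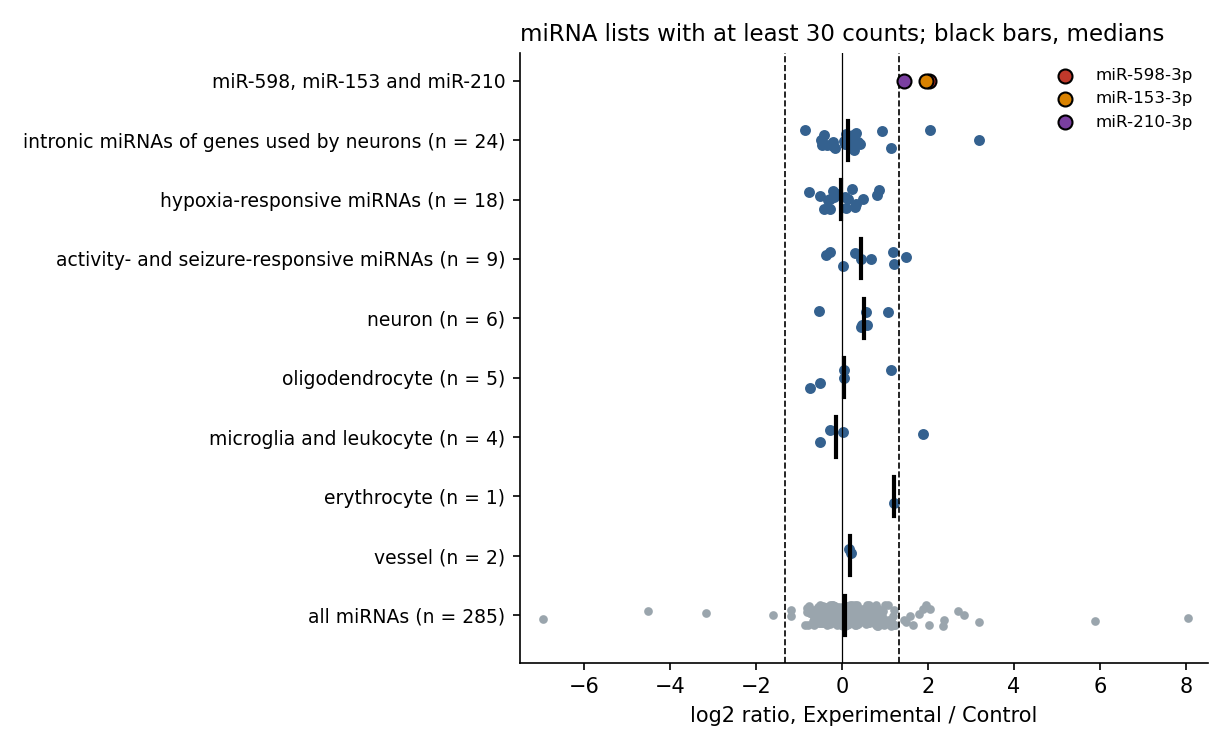
The log2 ratio of Experimental over Control library for miR-598-3p, miR-153-3p and miR-210-3p beside the rows of each list and all miRNAs with at least 30 counts in either library. Each point is a miRNA, black bars are medians and dashed lines mark 2.5-fold. The 3 members lie beyond the upper line by the rule that picked them. The medians of all 8 lists lie between the lines, and single rows of some lists lie beyond the upper line.

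Markers of the cell types of the tissue were read in the same libraries, because a hippocampal library sums all cells, and fewer cells of a type and less RNA per cell cannot be told apart. The 7 rows of neuronal markers summed to 10235 CPM after SE and 5259 CPM in the control group, most of it miR-124-3p with 50380 and 28500 counts. Of the 6 with at least 30 counts, 5 had a log2 ratio above 0, where the median of all 285 miRNAs was itself above 0, at 0.07. Over 2.5-fold higher were 0 of the 6, beside 5.61% of all 285, and in so short a list 0 is close to that share. The lowest was miR-138-1-3p, with 48 and 83 counts and a log2 ratio of -0.55. Oligodendrocyte markers summed to 2011 CPM and 2091 CPM over 5 rows, from a log2 ratio of -0.75 for miR-338-5p to 1.14 for miR-219-1-3p. Leukocyte and microglial markers summed to 69.2 CPM and 67.9 CPM over 4 rows, with a median log2 ratio of -0.14. Of these 1, miR-150-3p, was over 2.5-fold higher, beside 5.61% of all 285 miRNAs. In so short a list 1 row is not set apart from that share. MiR-150-5p, the other arm of the same precursor, had 48 and 81 counts (-0.52). MiR-146a-5p had a log2 ratio of -0.28 and miR-142-5p one of 0.01. Vessel markers summed to 247 CPM and 221 CPM over 4 rows, of which 2 reached 30 counts, miR-145-5p with a log2 ratio of 0.20 and miR-143-3p with one of 0.15. Erythrocyte markers summed to 39.4 CPM and 17.8 CPM over 3 rows, of which only miR-451-5p reached 30 counts, with 196 and 100 counts and a log2 ratio of 1.21. No row of these lists was at 0 in either library. The sum of the erythrocyte markers was higher after SE, and the direction of the neuronal sum depended on the markers taken. MiR-128-3p, which is also enriched in neurons but was listed with the intronic miRNAs, was at 37763 CPM after SE and 52854 CPM in the control group, and with it the neuronal sum was 47998 CPM after SE and 58113 CPM in the control library, a lower value after SE. The part of these markers in the higher counts of miR-598-3p, miR-153-3p and miR-210-3p was not tested.

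The scaling shifts all miRNAs alike. Against the sum of the counts, the median log2 ratio of the 285 miRNAs shifted by -0.24 with unscaled copies, -0.15 with edgeR's TMM and -0.06 with DESeq2's size factors. Relative to that median, miR-598-3p was 3.84-fold higher after SE, miR-153-3p 3.66-fold and miR-210-3p 2.57-fold. Over the 6 settings shown, the fold of miR-598-3p ran from 3.41 to 4.12, that of miR-153-3p from 3.25 to 3.92 and that of miR-210-3p from 2.29 to 2.76. MiR-598-3p and miR-153-3p thus stayed past 2.5-fold in all 6, and miR-210-3p did not with TMM or unscaled copies.

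**Figure D4:**
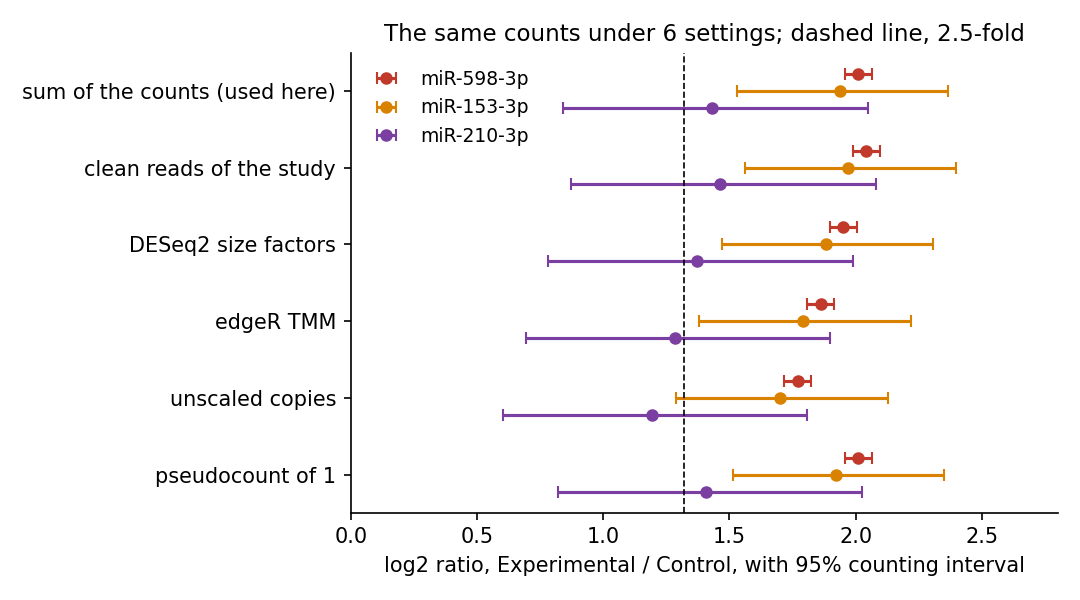
The log2 ratio of miR-598-3p, miR-153-3p and miR-210-3p under 6 settings, with bars as wide as the 95% exact Clopper-Pearson interval of the first setting. The dashed line marks 2.5-fold. The points of miR-598-3p and miR-153-3p lie right of the line in every setting, and that of miR-210-3p lies left of it with TMM and unscaled copies.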

How the data were processed

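Small RNA was sequenced from 2 pooled hippocampal libraries, 1 of the Experimental group and 1 of the Control group. The values that the authors deposited are unscaled counts of the reads assigned to a miRNA, made after reads that were short, of low quality or seen once had been removed. The aligner and the miRBase release are not given in the sources used here, and the submitters' processing notes name the build rn5. The labels name an array protocol and a sequencer that differ from those of the methods, which were followed. The header of the table calls its content normalized, yet every count is whole and the sums differ. A pair of columns with deposited p-values comes from the authors' own comparison and was not used.

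Counts were divided by the sum of the deposited counts of each library and given per 1000000. Counts under 3 were set to 3 before a ratio was taken. The 95% exact Clopper-Pearson interval of the proportion of a miRNA's reads found in the experimental library was turned into that of the log2 ratio. No test was run, since each group has 1 library and the members were picked by this ratio. A minimum of 30 counts in either library applied to all counts of miRNAs past 2.5-fold. The members and the lists were chosen with earlier results of these data known. The miRNAs named were the members, rows sharing bases 2 to 7 of a seed, rows within 10 kb, the 3 closest ratios, the rows at the limit, the neighbours by control counts and, from each list, those past 2.5-fold or else the highest and the lowest, and others are said to be chosen after seeing their values. MiR-128-3p, miR-21-5p, miR-150-5p and miR-142-5p were also chosen in this way. Lists were matched by name, and some listed miRNAs, such as miR-9, were not analysed here. Alternatives were the study's clean reads, unscaled copies, TMM, size factors, a pseudocount of 1, minimums of 10, 100 or no counts, known miRNAs only, and limits of 2-fold or 4-fold. Intervals and calls were tested on simulated data with counting error only. That checked the computation and says nothing on the spread between animals. Computation used R 4.3.3 with edgeR 4.0.16 and DESeq2 1.42.0, and Python 3.11.15 with matplotlib 3.10.9, pandas 2.3.3, numpy 2.4.6 and scipy 1.17.1.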

Additional observations from a re-analysis of the deposited data

How the results depend on the processing

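No paired analysis was possible because the libraries are single pools, and leaving out a replicate was not possible either. The log2 ratio of miR-598-3p moved by more than its counting interval to 1.95 (DESeq2's size factors), 1.86 (TMM) and 1.77 (unscaled copies), which follows from the shift that these scalings give every miRNA. The ratios of miR-153-3p, miR-153-5p and miR-210-3p stayed within their counting intervals under the 5 alternatives of scaling and pseudocount. The number of miRNAs past 2.5-fold depended on the minimum count. It was 31 higher and 16 lower with at least 10 counts, and 9 and 2 with at least 100 counts. With no minimum it was 37 and 20 of all 390 rows, beside 16 and 4 of 285 with at least 30 counts. Both the number of rows counted and the scatter of rows with few counts change with the minimum. With known miRNAs only, 2 were lower. Past 2-fold 26 were higher, and past 4-fold 9 were higher. Of the 72 medians of lists under the alternatives, 67 moved by less than the counting error of a typical member and 5 by more. With miR-128-3p added to the neuronal markers, an alternative chosen after seeing the data, their sum after SE minus that in the control library turned from 4976 CPM to -10115 CPM. Depth limits miR-153-5p, with 13 and 8 counts, and miR-210-3p, whose control count was 35.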
